A study of Mus musculus with 9 samples.

Results

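A set of 8 genes used to follow bile duct cells and the ductular reaction was examined in mouse liver RNA: Krt7, Krt19, Epcam, Sox9, Spp1, Cdh1, Krt8 and Krt18. They were taken by symbol from a table of 18954 genes, and each of the 8 had exactly 1 row and passed the filter on low counts, which 14004 genes passed. The data were counts of reads per gene from 9 livers, all labelled day 42. The 4 control livers came from GSDMD-NTki/wt mice, which carry a knock-in of the N-terminal, membrane pore-forming part of gasdermin D and no Cre. The 5 others came from GSDMD-NTki/wt & Alb-creki/wt mice, which also carry Cre recombinase under the albumin promoter, active in hepatocytes, and are called GSDMD-NT Alb-cre or, for short, Alb-cre livers here. The knock-in is shared by all 9 livers, so what Alb-cre does by itself and what GSDMD-NT does cannot be told apart here. Gsdmd itself measured 31.7 to 47.6 CPM (counts scaled to a common library total) in controls and 31.3 to 50.8 CPM in the other group (log2 fold change 0.08 ± 0.16, edgeR adjusted p = 0.765), but whether the knock-in is counted under this gene is not known, so it does not check the labels. The series describes fibrosis after conditional cell death brought on by doxycycline, but the sample labels name no doxycycline and do not say that each liver is another animal. The p-values therefore measure only how far these samples spread, and that spread may be technical.

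Cholangiocytes are the epithelial cells that line bile ducts. Hepatocytes build their cytoskeleton from the keratin pair Krt8 and Krt18, and cholangiocytes carry Krt7 and Krt19 as well. In chronic liver injury, strings of duct-like cells that express Krt7, Krt19, Epcam, Sox9 and Spp1 can spread out from the portal tracts, which is called a ductular reaction. In whole-liver RNA, fewer cells of a type and less RNA per cell cannot be told apart.

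None of the 8 genes passed the test between the groups. At an adjusted p under 0.05 by edgeR's quasi-likelihood test, 0 of the 8 were higher and 0 were lower in Alb-cre livers. Of all 14004 tested genes 18.3% were called, 9.25% higher and 9.07% lower. At an unadjusted p under 0.05 by the same test there was 1 gene, Spp1, which was also the 1 member called by DESeq2 and by limma-voom. Over all genes DESeq2 called 1719 higher and 1597 lower of 18600, and limma-voom 1253 higher and 1254 lower of 14004. The share of all genes at the unadjusted limit was not counted. No gene had levels that separated the groups, against 18.5% of all tested genes with non-overlapping levels. The median log2 fold change of the 8 genes was 0.02, beside 0.01 over all tested genes, and -0.34 without Alb-cre liver 4. What stood out instead was the spread within the Alb-cre group, where liver 4 held far more Krt7, Krt19 and Epcam RNA than any other liver and liver 5 held less than any other. Fold changes of these 3 genes and the correlations among them are given with and without these livers.

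**Figure D1:**
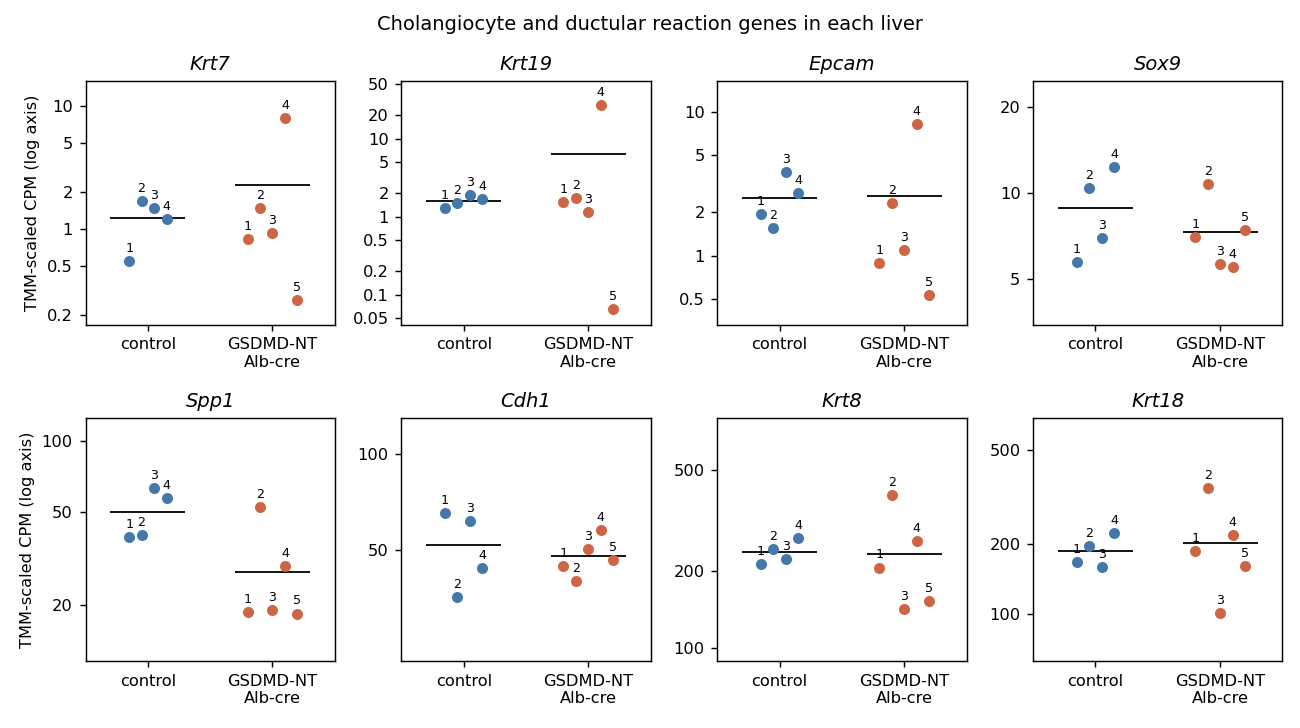
TMM-scaled CPM (log axis) of the 8 genes, each point 1 liver with its number in its group and each line the group mean of 4 control or 5 Alb-cre livers. Krt7, Krt19 and Epcam were highest in Alb-cre liver 4 and lowest in liver 5, and Krt8 and Krt18 were highest in liver 2.

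Krt7 and Epcam shared their highest and lowest livers, as did Krt8 and Krt18, and the 250 bases upstream of each start are shown so that the promoters of each pair can be compared. The sequences are from RefSeq on GRCm38.p6, another build than that of the counts, and are written in the direction of the gene. RefSeq entries were found for 5 of the 8 genes. Those of Krt7, Epcam, Krt8 and Krt18 are shown, Spp1 also had one, and Krt19, Sox9 and Cdh1 were not matched. Capitals mark matches on either strand to the TATA box TATAAA, the CCAAT box, the GC box GGGCGG, the AP-1 site TGANTCA, the RBPJ core TGGGAA and the TEAD core GGAATG. RBPJ carries Notch signals and TEAD factors carry YAP signals, and the RBPJ and TEAD motifs can overlap.
Krt7 promoter, chr15:101412153-101412402, plus strand: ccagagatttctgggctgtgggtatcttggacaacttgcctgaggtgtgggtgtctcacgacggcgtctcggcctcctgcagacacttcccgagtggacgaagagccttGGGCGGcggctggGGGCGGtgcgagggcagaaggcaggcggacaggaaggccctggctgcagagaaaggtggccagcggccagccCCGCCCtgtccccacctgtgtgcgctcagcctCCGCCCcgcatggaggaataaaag
Epcam promoter, chr17:87635729-87635978, plus strand: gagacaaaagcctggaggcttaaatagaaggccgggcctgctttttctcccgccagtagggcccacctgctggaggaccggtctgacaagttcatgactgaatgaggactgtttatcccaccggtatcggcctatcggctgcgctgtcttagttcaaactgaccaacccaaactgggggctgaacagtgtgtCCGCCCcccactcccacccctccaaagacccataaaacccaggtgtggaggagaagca
Krt8 promoter, chr15:102004343-102004592, minus strand: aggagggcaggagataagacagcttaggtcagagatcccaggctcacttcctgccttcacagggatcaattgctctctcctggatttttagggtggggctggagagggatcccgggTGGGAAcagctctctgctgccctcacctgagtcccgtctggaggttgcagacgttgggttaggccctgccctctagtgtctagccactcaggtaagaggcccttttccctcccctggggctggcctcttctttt
Krt18 promoter, chr15:102027966-102028215, plus strand: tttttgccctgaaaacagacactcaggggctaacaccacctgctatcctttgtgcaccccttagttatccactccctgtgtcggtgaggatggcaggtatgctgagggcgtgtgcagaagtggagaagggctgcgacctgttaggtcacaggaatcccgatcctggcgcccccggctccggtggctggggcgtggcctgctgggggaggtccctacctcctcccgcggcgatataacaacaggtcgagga

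The Krt7 window held 4 GC boxes, between 141 and 19 bases before the start, and the Epcam window held 1, at 58 to 53 bases before it. A GC box was present in 32.7% of 32841 RefSeq promoter windows of the same length. The Krt8 window held 1 RBPJ core, 134 to 129 bases before the start, a match found in 21.6% of windows, and the Krt18 window held none of these motifs. These matches describe letters and not bound sites. By RefSeq's gene order Krt8 and Krt18 are neighbours on chromosome 15, with 0 protein-coding genes between them, and Krt7 lies on the same chromosome.

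Levels of different genes were compared per kilobase of the principal transcript in GENCODE M21. In controls the order was Krt18 (130 ± 20.2 CPM per kilobase, SD, n = 4), Krt8 (121 ± 12.5), Spp1 (33.1 ± 8.10), Cdh1 (11.6 ± 3.22), Sox9 (2.14 ± 0.741), Epcam (1.23 ± 0.489), Krt19 (1.01 ± 0.170) and Krt7 (0.298 ± 0.120). Krt18 and Krt8 overlapped in range over the 4 controls, as did Sox9 with Epcam and Epcam with Krt19. The keratins that hepatocytes also express were thus measured at far higher levels than the keratins of bile ducts. All other levels below are TMM-scaled CPM, and each log2 fold change is that of Alb-cre livers over controls, ± SE from edgeR.

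Krt19, a bile duct keratin, spanned 411 times within the Alb-cre group, the widest span of the 8. It measured 1.28, 1.48, 1.91 and 1.67 CPM in controls 1 to 4 and 1.53, 1.73, 1.15, 27.3 and 0.0664 CPM in Alb-cre livers 1 to 5. Livers 1, 2 and 3 of the Alb-cre group thus lay close to the controls, liver 4 was 15.8 times the next Alb-cre liver, and liver 5 was almost without Krt19. The counts behind this were 480 in liver 4 (95% exact Poisson interval 438 to 525) and 1 in liver 5 (0.0253 to 5.57), against 21 to 28 in controls, and such intervals cover counting error only. The group means were 1.59 ± 0.268 CPM (SD, n = 4) and 6.36 ± 11.7 CPM (SD, n = 5), with a log2 fold change of 2.01 ± 1.08 (95% interval -0.34 to 4.37, edgeR adjusted p = 0.207). Without liver 4 the log2 fold change was -0.49 (adjusted p = 0.552), and without liver 5 it was 2.33. With limma-voom on all 9 livers it was 0.047 (adjusted p = 0.982).

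Krt7, the partner keratin of Krt19 in ducts, had the same highest and lowest livers at lower counts. It measured 0.548, 1.68, 1.47 and 1.20 CPM in controls 1 to 4 and 0.828, 1.46, 0.923, 7.91 and 0.266 CPM in Alb-cre livers 1 to 5. Liver 4, with 139 counts (95% exact Poisson interval 117 to 164), lay above all controls, which had 9 to 26 counts, and liver 5, with 4 counts (1.09 to 10.2), was the lowest of the 9. The log2 fold change was 0.92 ± 0.77 (95% interval -0.77 to 2.60, edgeR adjusted p = 0.424), with -0.47 without liver 4 (adjusted p = 0.516) and 1.20 without liver 5. With limma-voom on all 9 livers it was 0.16 (adjusted p = 0.903).

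Epcam, an adhesion molecule on the surface of duct and progenitor cells, was again highest in liver 4 and lowest in liver 5. It measured 1.95, 1.55, 3.81 and 2.75 CPM in controls 1 to 4 and 0.892, 2.33, 1.10, 8.19 and 0.531 CPM in Alb-cre livers 1 to 5. Apart from liver 4 the Alb-cre livers averaged 1.21 ± 0.781 CPM (SD, n = 4), against 2.51 ± 0.998 CPM (SD, n = 4) in controls, and livers 1, 3 and 5 lay below every control. The log2 fold change was 0.07 ± 0.66 with all livers (95% interval -1.36 to 1.51, edgeR adjusted p = 0.953). It was -1.04 without liver 4 (adjusted p = 0.123), 0.33 without liver 5, -0.02 without control 1 (adjusted p = 0.990) and -0.10 without control 2 (adjusted p = 0.941).

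Sox9, a transcription factor of duct cells that periportal hepatocytes can also express, was not high in liver 4. It measured 5.72, 10.4, 6.96 and 12.4 CPM in controls 1 to 4 and 7.01, 10.8, 5.65, 5.52 and 7.44 CPM in Alb-cre livers 1 to 5. Liver 4, the highest for the duct keratins, was the lowest of all 9 for Sox9, and the groups overlapped over most of their range. The log2 fold change was -0.29 ± 0.26 (95% interval -0.85 to 0.28, edgeR adjusted p = 0.455), and -0.08 without control 4 (adjusted p = 0.871).

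Spp1 encodes osteopontin, a secreted matrix protein made by duct cells and by some macrophages, and it came closest to a group difference. It measured 39.1, 39.8, 63.0 and 57.5 CPM in controls 1 to 4 and 18.8, 52.5, 19.1, 29.3 and 18.5 CPM in Alb-cre livers 1 to 5. Alb-cre livers 1, 3, 4 and 5 lay below every control and liver 2 lay within the control range. The group means were 49.9 ± 12.2 CPM (SD, n = 4) and 27.6 ± 14.6 CPM (SD, n = 5), with a log2 fold change of -0.85 ± 0.30 (95% interval -1.50 to -0.20, unadjusted p = 0.0146 and adjusted p = 0.0657 by edgeR's quasi-likelihood test). Without liver 2 the log2 fold change was -1.21 (adjusted p = 0.00608), and over the 17 alternatives tried the adjusted p ran from 0.00608 to 0.205.

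Macrophage genes were read beside Spp1. Of 12 tested macrophage genes 0 were higher and 1 was lower by edgeR, Gpnmb, a lysosomal glycoprotein of lipid-laden macrophages, at 1.28, 1.03, 2.42 and 5.86 CPM in controls 1 to 4 and 0.510, 0.333, 0.346, 0.512 and 0.133 CPM in Alb-cre livers 1 to 5 (log2 fold change -2.82 ± 0.55, edgeR adjusted p = 0.00795). By edgeR 8.33% of the 12 were called in either direction, beside 18.3% of all tested genes. DESeq2 called 3 of the 12 lower and limma-voom 1. Trem2, a receptor of the same cells, did not pass (-1.48 ± 0.49, adjusted p = 0.0541). The median log2 fold change of the 12 genes was -0.38, and the 5 with an unadjusted p under 0.05 by edgeR were all lower. The summed level of the 12 genes was 175 to 260 CPM in controls and 182 to 333 CPM in Alb-cre livers, so the sums overlapped. The most abundant of them were Clec4f of Kupffer cells (47.8 to 83.0 CPM in controls and 57.5 to 82.9 CPM in Alb-cre livers), the fatty acid binding gene Fabp5 (22.1 to 39.3 and 20.7 to 136 CPM) and the lysozyme gene Lyz2 (25.4 to 58.3 and 30.7 to 39.8 CPM), none of them called. The part of macrophages in the Spp1 values was not tested.

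Cdh1, E-cadherin of the junctions between epithelial cells, spanned 1.46 times within the Alb-cre group, the smallest span of the 8. It measured 65.2, 35.5, 61.8 and 43.8 CPM in controls 1 to 4 and 44.3, 39.7, 50.2, 57.8 and 46.2 CPM in Alb-cre livers 1 to 5. Every Alb-cre liver lay inside the control range. The log2 fold change was -0.11 ± 0.18 (95% interval -0.50 to 0.28, edgeR adjusted p = 0.688), and 0.03 without control 1 (adjusted p = 0.927).

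Krt8, the type II keratin of all simple epithelia, measured 214, 243, 223 and 269 CPM in controls 1 to 4 and 207, 399, 142, 262 and 153 CPM in Alb-cre livers 1 to 5. Its type I partner Krt18 measured 167, 197, 159 and 223 CPM in controls 1 to 4 and 186, 344, 101, 217 and 161 CPM in Alb-cre livers 1 to 5. For both, liver 2 was the highest of the 9 and liver 3 the lowest, with 2.82 times between them for Krt8 and 3.41 times for Krt18, whereas the controls spanned 1.26 and 1.40 times. The log2 fold change was -0.03 ± 0.26 for Krt8 (95% interval -0.60 to 0.54, edgeR adjusted p = 0.951) and 0.11 ± 0.27 for Krt18 (95% interval -0.48 to 0.71, edgeR adjusted p = 0.798). Neither direction was stable, since Krt18 gave -0.17 without liver 2 and Krt8 gave 0.02, 0.12 and 0.09 without Alb-cre liver 1, 3 or 5 and 0.04 without control 4. The ratio of Krt8 to Krt18 counts was 1.21 to 1.40 in controls and 0.950 to 1.40 in Alb-cre livers. In Alb-cre livers 1, 2, 4 and 5 it was 1.113, 1.161, 1.205 and 0.950, below the lowest control at 1.207, liver 4 only just, and in liver 3 it was 1.403. The difference in this ratio was not tested. A processed copy, Krt8-ps, had 9 to 36 counts per liver beside 2299 to 5997 for Krt8, and the sources used here do not say how reads shared between them were counted.

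Within the Alb-cre group, the highest and the lowest liver for Krt8 and Krt18 were also the highest and the lowest for Saa1. This acute phase gene encodes a serum amyloid made by hepatocytes under inflammatory cytokines. Among Alb-cre livers 1 to 5 Saa1 measured 3859, 19310, 88.7, 1399 and 5195 CPM, with 20.6 to 74.7 CPM in controls. Liver 2 was thus the highest and liver 3 the lowest of the Alb-cre group for all 3 genes, while the order of the other livers differed, as liver 5 was second for Saa1 and low for Krt8. The part of the acute phase response in the keratin values was not tested.

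**Figure D2:**
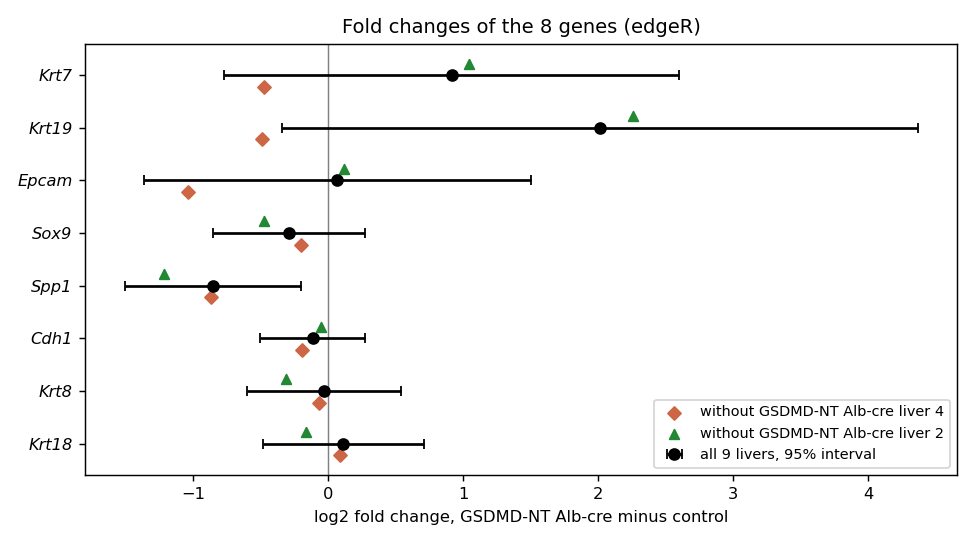
Log2 fold changes of the 8 genes (Alb-cre minus control, edgeR) with 95% intervals over all 9 livers, and the values without Alb-cre liver 4 (diamonds) or liver 2 (triangles). Krt7, Krt19 and Epcam changed sign without liver 4, from 0.92, 2.01 and 0.07 to -0.47, -0.49 and -1.04, and Spp1 moved from -0.85 to -1.21 without liver 2.

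Other cholangiocyte genes were read to see whether liver 4 stood apart beyond the 8. Of the 26 with a row, 22 were tested, and 0 were higher and 0 lower by edgeR between the groups, with a median log2 fold change of 0.21. At an unadjusted p under 0.05 there were 4, DESeq2 called 1 higher and 1 lower, and limma-voom called 0. Without liver 4, edgeR called 0 of 21 higher and 2 lower, Wfdc2 and Alcam, and the median was -0.25. Liver 4 was the highest of the 9 livers in 12 of the 26, beside 8.004% of the 12831 tested genes with a mean of at least 1 CPM. The 12831 hold tested genes only, whereas the 26 include untested ones, some of them also highest in liver 4. The membrane mucin gene Muc1 reached 29.1 CPM there and 0.608 to 1.97 CPM in the other 8 livers. Cd24a, a surface glycoprotein of duct and progenitor cells, reached 27.8 CPM against 0.664 to 3.88 CPM. The tetraspanin gene Tspan8 reached 12.4 CPM against 0.382 to 1.61 CPM, and the stem and progenitor surface gene Prom1 reached 8.19 CPM against 0.387 to 1.83 CPM. Ehf, an epithelial transcription factor, and Cldn7, a tight junction claudin, reached 5.46 and 4.04 CPM and were also more than 2-fold above every other liver. Not every biliary gene stood out in liver 4. Onecut1, a transcription factor of bile duct formation, measured 16.2 CPM there and 7.55 to 62.9 CPM in controls.

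**Figure D3:**
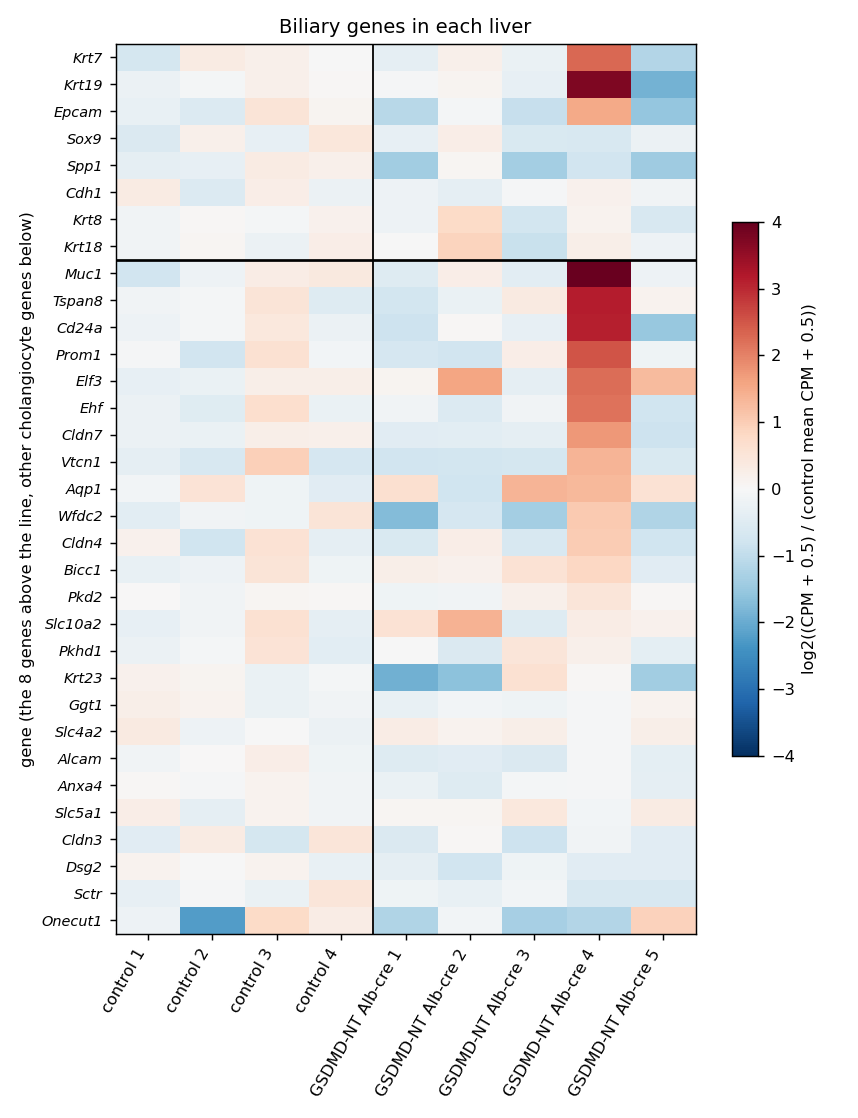
Level of each biliary gene in each liver relative to its control mean, as log2 of CPM with 0.5 added, with the 8 genes above the thick line and other cholangiocyte genes below it, ordered by Alb-cre liver 4. Red marks a higher and blue a lower level, and the column of liver 4 is red for Krt7, Krt19, Epcam, Muc1, Tspan8, Cd24a and Prom1 but not for Sox9 or Spp1.

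Over the whole table few genes set liver 4 apart as far as Krt19 did. Among the 12831 genes, 5 were at least 5-fold higher in liver 4 than in every other liver, a limit chosen after the members' values were seen. They were Muc1, Krt19, Slc44a4, a choline transporter of epithelia, Tspan8 and Cd24a. The mean of at least 1 CPM included liver 4 itself. Slc44a4 reached that mean only through liver 4, with 0.133 to 0.660 CPM in the other livers. The mean of Tspan8 without liver 4 was also below 1 CPM. The same 5-fold limit gave 5 genes for Alb-cre liver 2, 1 for control 2 and 0 for each of the other 6 livers. Krt7 and Epcam did not reach 5-fold, and at 2-fold, which both met, there were 36 genes for liver 4. The mucus peptide gene Tff2, below the filter on low counts, had 95 counts in liver 4 and 0 to 11 in the other livers. Tff2 belongs to a list of 12 gut and gallbladder genes of which 4 had a row. Vil1, which encodes villin of microvilli and was also below the filter, had 47 counts in liver 4 and 1 to 11 in the others, so liver 4 was the highest of the 9 for 2 of the 4. The summed level of the 4 was 68.2 CPM in liver 4, within the 64.7 to 111 CPM of controls, and was nearly all Fabp2 and Lgals4. These 2 fell by edgeR (log2 fold changes -0.49 ± 0.15 and -0.81 ± 0.26, edgeR adjusted p = 0.0397 and 0.0464). Both calls were lost without control 2 or 4 and without liver 1, 2 or 4 of the Alb-cre group, among others. Whether liver 4 held more duct or gallbladder tissue was not tested.

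Mesothelial cells, which cover the liver surface, share Krt7, Krt8, Krt18 and Krt19 with ducts. The summed level of 9 mesothelial genes was 0.791 to 4.33 CPM in controls and 7.45, 8.32, 4.44, 12.9 and 1.46 CPM in Alb-cre livers 1 to 5. Alb-cre livers 1 to 4 all lay above every control, liver 4 was again the highest and liver 5 the lowest Alb-cre liver. Only 4 of the 9 passed the filter on low counts. Their median log2 fold change was 1.92, and 3 of them had an unadjusted p under 0.05 by edgeR. Of these 4 tested genes 1 was higher by edgeR and DESeq2 and 0 by limma-voom, namely Msln, which encodes mesothelin (log2 fold change 2.91 ± 0.82, edgeR adjusted p = 0.0305). That call was lost without control 1, 2, 3 or 4, and Msln did not pass the filter in 4 of the 9 fits that left out 1 liver. With 0 to 3 counts in controls and 1 to 39 in Alb-cre livers, Msln passed the filter only through Alb-cre livers. Upk3b had 1 to 15 and 1 to 79 counts. The median of 1.92, the 3 genes at the unadjusted limit and the Msln call thus rest partly on genes kept because that group was high. They do not measure a group difference for the 9. The most abundant of the 9 were Upk3b (0.0598 to 0.968 CPM in controls and 0.0664 to 4.49 CPM in Alb-cre livers), Gpm6a (0.120 to 0.904 and 0.598 to 2.67 CPM) and Wt1 (0.243 to 1.87 and 0.288 to 0.998 CPM), none of them called. Msln, Upk1b, Lrrn4, Muc16, Bnc1 and Rspo1 were at 0 in at least 1 liver. The part of mesothelium in the keratin values was not tested. Of 12 pancreas genes 2 had a row, Cela1 and Cela2a, with a summed level of 12.3 to 17.8 CPM in controls and 8.65 to 15.7 CPM in Alb-cre livers, and 0 of these 2 were called by edgeR, DESeq2 or limma-voom or had an unadjusted p under 0.05 by edgeR.

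Signals that drive ducts were next described, first the Notch pathway, through which portal cells direct duct fate. Of 13 tested Notch genes 2 rose and 0 fell by edgeR, with a median log2 fold change of -0.06. The share called by edgeR was 15.4%, beside 18.3% of all tested genes. DESeq2 called 2 higher and 0 lower, limma-voom called 2 higher and 1 lower, and 5 had an unadjusted p under 0.05 by edgeR. The receptor genes Notch1 (14.0 to 16.7 CPM in controls and 16.7 to 23.4 CPM in Alb-cre livers, log2 fold change 0.44 ± 0.12, edgeR adjusted p = 0.0327) and Notch2 (25.4 to 43.2 CPM and 42.8 to 59.0 CPM, 0.51 ± 0.16, adjusted p = 0.0452) were the 2. The ligand gene Jag1 (-0.25 ± 0.25, adjusted p = 0.498) and the target gene Hes1 (-0.85 ± 0.33, adjusted p = 0.0882) did not pass. Neither receptor kept its call without control 2 or 4, nor without liver 1, 4 or 5 of the Alb-cre group. That of Notch1 also needed controls 1 and 3, and that of Notch2 Alb-cre liver 3.

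Among 18 tested genes of YAP and TAZ signalling, which responds to cell shape and injury, 2 rose and 0 fell by edgeR, with a median log2 fold change of 0.19. The share called by edgeR was 11.1%, beside 18.3% of all tested genes. DESeq2 called 3 higher and 1 lower, limma-voom called 2 higher and 0 lower, and 6 had an unadjusted p under 0.05 by edgeR. Nf2, an upstream restraint of YAP, measured 36.6 to 40.3 CPM in controls and 49.9 to 55.9 CPM in Alb-cre livers (log2 fold change 0.49 ± 0.10, edgeR adjusted p = 0.00792). Its levels did not overlap, and its call was kept in all 9 fits that left out 1 liver. Tead1, a DNA-binding partner of YAP, was the other (0.62 ± 0.17, adjusted p = 0.0276), and it did not pass when control 1, 2 or 4 or Alb-cre liver 5 was left out. The target genes Ccn1 (-0.96 ± 0.32, adjusted p = 0.0541) and Ccn2 (0.95 ± 0.61, adjusted p = 0.296) had opposite signs and did not pass.

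Growth and cytokine signals of the ductular reaction gave 2 higher and 1 lower of 15 tested genes by edgeR, with a median log2 fold change of -0.03. The share called by edgeR was 20%, beside 18.3% of all tested genes. DESeq2 called 3 higher and 1 lower, limma-voom called 2 higher and 1 lower, and 6 had an unadjusted p under 0.05 by edgeR. Egfr, the epidermal growth factor receptor, measured 323 to 461 CPM in controls and 640 to 997 CPM in Alb-cre livers (log2 fold change 1.04 ± 0.18, edgeR adjusted p = 0.00506). Il6st, the shared receptor chain of the interleukin-6 family, measured 98.0 to 126 CPM and 177 to 297 CPM (1.01 ± 0.16, adjusted p = 0.00457). Both separated the groups and were called in all 9 fits that left out 1 liver. Hepatocytes express both receptors as well. Fgfr2, a receptor for fibroblast growth factors, fell from 36.8 to 38.9 CPM in controls to 17.5 to 32.0 CPM (-0.55 ± 0.16, adjusted p = 0.0316), which did not pass when control 1, 2 or 4 or Alb-cre liver 1 was left out. Tnfrsf12a, the receptor for TWEAK, a signal that makes progenitor cells divide, measured 6.27 to 12.1 CPM and 10.3 to 32.3 CPM (0.78 ± 0.32, adjusted p = 0.109).

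Partners of the members in filaments, junctions and matrix binding were mixed. Of 13 tested keratins and filament linkers 0 were called by edgeR, DESeq2 or limma-voom and 1 had an unadjusted p under 0.05 by edgeR, with a median log2 fold change of 0.03. Of 22 junction genes 4 rose and 1 fell by edgeR, with a median of 0.17, and DESeq2 and limma-voom gave the same counts. The share called by edgeR was 22.7%, beside 18.3% of all tested genes. Cldn2, a pore-forming claudin, rose (0.88 ± 0.22, edgeR adjusted p = 0.0197), as did Afdn, which links nectins to actin (0.57 ± 0.15, adjusted p = 0.0218) and Vcl, which anchors actin (0.93 ± 0.29, adjusted p = 0.0446). Ocln, occludin of tight junctions, fell (-0.59 ± 0.18, adjusted p = 0.0390). The catenin genes Ctnna1, Ctnnb1 and Ctnnd1, whose products belong to the E-cadherin complex, had log2 fold changes of 0.06 ± 0.11, 0.57 ± 0.22 and -0.31 ± 0.14 (adjusted p = 0.726, 0.0859 and 0.137). All 5 junction calls were lost without control 2, and without control 4 all but that of Ocln were. Of 9 tested receptor genes for osteopontin 1 rose, the integrin Itgb3 (1.06 ± 0.29, adjusted p = 0.0270), and 1 fell, the integrin Itga8 (-0.88 ± 0.27, adjusted p = 0.0416), neither of which passed when control 2 or 4 or Alb-cre liver 1 was left out. By edgeR 22.2% of these receptor genes were called, beside 18.3% of all tested genes. Cd44, a receptor for osteopontin and hyaluronan, measured 16.8 CPM in liver 4 and 2.26 to 6.28 CPM in the other livers.

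**Figure D4:**
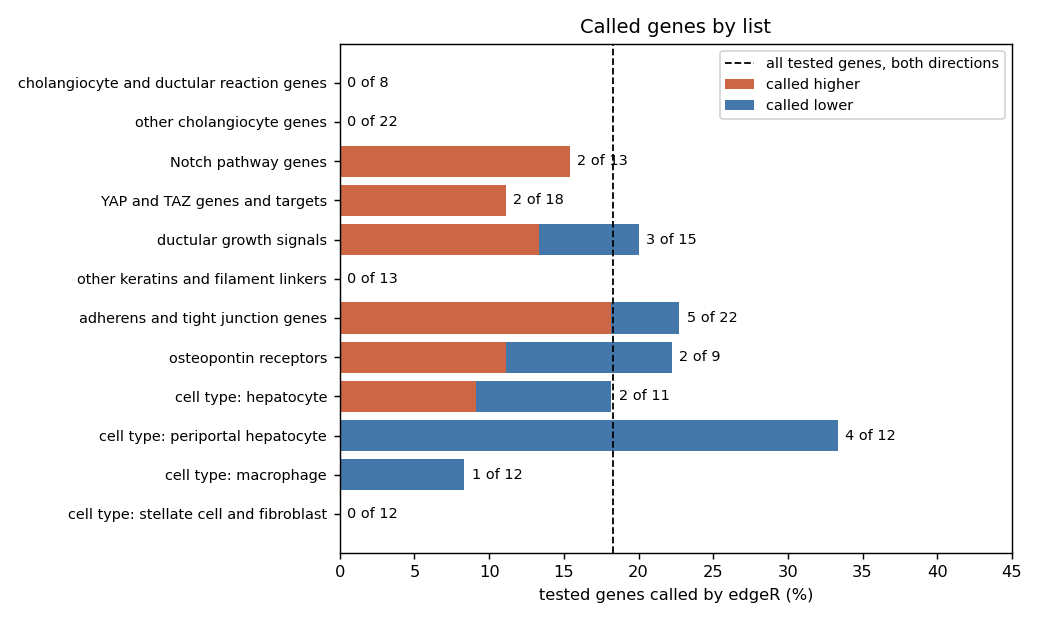
Share of tested genes called higher (orange) or lower (blue) by edgeR in each list with at least 5 tested genes, with counts beside the bars and the 18.3% of all tested genes as a dashed line. The 8 genes, 22 other cholangiocyte genes and 13 filament genes had 0 calls, while 4 of 12 periportal hepatocyte genes were called lower.

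Hepatocyte genes were read because hepatocytes supply Krt8, Krt18 and part of Cdh1 and Sox9. Of 11 tested hepatocyte genes 1 rose, the fibrinogen gene Fga (1.51 ± 0.41, edgeR adjusted p = 0.0272), and 1 fell, the transthyretin gene Ttr (-1.14 ± 0.20, adjusted p = 0.00553). These calls made up 18.2% of the 11, beside 18.3% of all tested genes. The Ttr call was kept in all 9 fits that left out 1 liver, and that of Fga was lost without control 2, 3 or 4 and without liver 1 or 5 of the Alb-cre group. Alb, which encodes albumin (-0.33 ± 0.20, adjusted p = 0.271), and the apolipoprotein gene Apoa1 (-0.43 ± 0.20, adjusted p = 0.143), the most abundant with Fga, did not pass. The summed level of the 11 genes was 83333 to 104829 CPM in controls and 77790 to 97224 CPM in Alb-cre livers, and liver 4 was the lowest of the 9. Of 12 periportal hepatocyte genes 0 rose by edgeR, DESeq2 or limma-voom, while 6 fell by DESeq2, 5 by limma-voom and 4 by edgeR, namely Hal, which breaks down histidine (-0.92 ± 0.23, adjusted p = 0.0213), Aldh1b1, an aldehyde dehydrogenase (-0.70 ± 0.18, adjusted p = 0.0235), Ass1 of the urea cycle (-0.63 ± 0.19, adjusted p = 0.0415) and Hsd17b13 of lipid droplets (-0.40 ± 0.13, adjusted p = 0.0472). These 4 were 33.3% of the list, beside 9.07% of all tested genes called lower by edgeR. None of the 4 passed when control 1 or 4 or Alb-cre liver 1 was left out, and the median of the 12 was -0.43. The most abundant beside Ass1 were Pck1 of glucose synthesis (0.21 ± 0.26, adjusted p = 0.600) and the cytochrome gene Cyp2f2 (-0.11 ± 0.19, adjusted p = 0.723), which did not pass. Of 12 stellate cell and fibroblast genes 0 were called by edgeR, DESeq2 or limma-voom and 0 had an unadjusted p under 0.05 by edgeR. Dcn (72.0 to 126 CPM in controls and 56.7 to 105 CPM in Alb-cre livers), Reln (23.1 to 43.5 and 15.4 to 46.9 CPM) and the collagen gene Col3a1 (27.3 to 33.2 and 10.1 to 40.3 CPM) were the most abundant. Acta2, the smooth muscle actin of activated stellate cells and of vessel walls, measured 23.7 CPM in liver 4 and 0.664 to 8.88 CPM in the others (1.35 ± 0.84, edgeR adjusted p = 0.275). The summed level ran from 184 to 301 CPM in controls and from 126 to 273 CPM in Alb-cre livers, with liver 4 the highest and liver 5 the lowest of that group.

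Genes whose livers deviated from their group means most like each member are given as a description, by Pearson correlation over 9 livers and among 12830 genes. For Krt19 they were Anxa2, Dhrs7b and Cd24a (r = 0.97 for each), for Krt7 Ppp1r9b, Clstn1 and Adamts2 (0.96 for each) and for Epcam Mbp, Sinhcaf and St14 (0.96 for each). Anxa2, like Krt19, was highest in liver 4 and lowest in liver 5, and measured 27.6 CPM in liver 4 and 4.38 in liver 5, and 7.33 to 15.6 CPM in the other livers. For Sox9 they were Abhd11, Psmd4 and Rpl6l (0.99, 0.98 and 0.97), for Spp1 Klf6, Dlg4 and Tpm1 (0.98, 0.96 and 0.96) and for Cdh1 Tbc1d13, Top2a and Atxn1l (0.98, 0.95 and 0.93). For Krt8 they were Mea1, Ihh and Ppil1 (0.97 for each) and for Krt18 Erp29, Rhoc and Smco4 (0.99, 0.99 and 0.97). By the same measure Krt7, Krt19 and Epcam paired at 0.91 to 0.96 and Krt8 with Krt18 at 0.95. Without Alb-cre livers 4 and 5, over 7 livers, Krt7 with Krt19 was 0.63, Krt7 with Epcam 0.43, Krt19 with Epcam 0.73 and Krt8 with Krt18 0.98. Over those 7 livers Krt19 correlated with Anxa2 at 0.52, with Cd24a at 0.44 and with Dhrs7b at 0.023, so its likeness to these 3 was seen mainly with livers 4 and 5 included. The 3 genes named for Krt7 then stood at 0.77 to 0.85 and those for Epcam at 0.84 to 0.97. Sox9 paired with Krt7, Krt19 and Epcam at -0.25 to -0.08 over 9 livers and at 0.29 to 0.68 over these 7.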

How the data were processed

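Whole-number counts per gene, not normalized, were deposited by the authors for 9 livers, with totals of 13361093 to 16823506 per liver. Per the labels' protocols the paired-end libraries were strand-specific and depleted of ribosomal RNA. The tools fastp 0.23.2 and HISAT2 2.1.0 and the build GRCm39 are named in the submitters' processing notes. The sources used here do not give the counter, its strand setting or the annotation release.

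Groups came from sample titles and columns were matched by sample descriptions, with 0 sample columns unused. Counts were fitted in R 4.3.3 with edgeR 4.0.16 (filterByExpr, TMM, glmQLFit, glmQLFTest, group only), with Benjamini-Hochberg adjustment over 14004 genes. SE came from the log2 fold change and F, and 95% intervals from the test's t distribution. The fit was tested on simulated data. DESeq2 1.42.0, limma-voom (limma 3.58.1), other scalings and filters, a block and each liver left out were tried. Figures used matplotlib 3.10.9.

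The members and lists were chosen with earlier results of these data known. Named genes were the 8 members, up to 4 called genes per list and direction by smallest adjusted p, the 3 most abundant genes of each cell type list, and the 3 genes most like each member. Muc1, Cd24a, Tspan8, Prom1, Ehf, Cldn7, Onecut1, Slc44a4, Tff2, Vil1, Acta2, Wfdc2, Alcam, Trem2, Saa1, Gsdmd, Krt8-ps, Jag1, Hes1, Ccn1, Ccn2, Tnfrsf12a, Cd44 and the catenins were chosen after their values were seen. Some genes counted in the lists are not reported here by name.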

Additional observations from a re-analysis of the deposited data

Results flagged for a closer look

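Of 16 sets of values, the 8 genes in each of 2 groups, 3 held a liver whose gap to its nearest neighbour was too large a part of the group's range, and all 3 were GSDMD-NT Alb-cre liver 4. Chance flags about 5% of such sets, and the 3 genes share the liver. Krt7 was flagged at 7.91 CPM, Krt19 at 27.3 CPM and Epcam at 8.19 CPM. The gap was 0.843 of the range for Krt7, 0.939 for Krt19 and 0.765 for Epcam.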

How the results depend on the processing

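Over 17 alternatives no member was called higher, and Spp1 was the 1 member called lower in any. Spp1 passed with DESeq2 (log2 fold change -0.84, adjusted p = 0.0355, 1 member called lower) and with limma-voom (-0.95, adjusted p = 0.0398, 1 member called lower). Limma-voom gave Krt19 as 0.047, Krt7 as 0.16, Krt18 as 0.018 and Krt8 as -0.13, and the replicate block gave Krt19 as 1.05. Epcam changed sign with limma-voom (-0.51) and with the replicate block on the title numbers (-0.0875). With GSDMD-NT Alb-cre livers 4 and 5 both left out, chosen after the data were seen, Krt7 (-0.18), Krt19 (-0.10), Epcam (-0.80) and Krt8 (0.0751) changed sign, and 516 genes were higher and 483 lower. DESeq2 gave Krt19 no adjusted p.

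When 1 liver was left out, log2 fold changes ran from -0.47 to 1.20 for Krt7, -0.49 to 2.33 for Krt19, -1.04 to 0.33 for Epcam, -0.47 to -0.08 for Sox9, -1.21 to -0.72 for Spp1, -0.25 to 0.0307 for Cdh1, -0.31 to 0.12 for Krt8 and -0.17 to 0.30 for Krt18. Members called lower ran from 0 to 1, genes called higher from 567 (without control 2) to 1339 and genes called lower from 625 (without control 4) to 1184, against 1296 and 1270 with all livers. The replicate block gave 923 genes higher and 819 lower. Same-numbered livers deviated together with correlations of 0.07, -0.01, 0.12 and 0.16, and 0 of 4 controls correlated best with its own number, so the numbers were not read as pairs. Of 24 called list genes, 19 lost the call or the filter in at least 1 of 9 such fits. Outside Alb-cre liver 4, Krt7, Krt19 and Epcam had 1 to 52 counts per liver, so their levels in single livers are limited by depth. The cause of these changes was not tested.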
